A study of Mus musculus with 12 samples.

Results

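The 38 genes described here encode the core machinery of autophagy, and their accessible sites were taken from lists of ATAC-seq peak summits in mouse embryoid bodies. A summit is the single base at which a peak of Tn5 transposase insertion, the mark of open chromatin, was highest. Every summit of the 12 libraries was given to the protein-coding gene whose nearer end lay closest, within 100 kb. In this way 859 of 386209 summits fell to the 38 genes, out of 21631 protein-coding genes on chromosomes 1 to 19 and X. Of these, 341 lay within 1 kb of a gene end (gene-end summits) and 518 lay farther away (distal summits). The genes were listed by function. They cover the Ulk initiation kinase (5 genes), Atg9 vesicles and Atg2 lipid transfer (6), the class III PI3 kinase (5), the conjugation enzymes (11), the Atg8 family (5), cargo receptors (3) and a group of 2 transcription factors and 1 lysosomal membrane protein.

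Embryonic stem cells were differentiated into embryoid bodies under mesodermal conditions, after plating to remove the irradiated fibroblast feeders, and 50000 cells went into each transposition. Foxk1 knockout cells (KO) were taken at days 3, 5 and 10. The control arm at days 3 and 5 was the iHA-Foxk1 line without doxycycline (iFoxk1_ND), and at day 10 it was a group with the label Control, and all 12 libraries carry the label NoDox. Each of the 6 groups held 2 libraries, and nothing in the labels says that these came from separate cultures, so p-values measure the spread between libraries, which may be technical. How the knockout was made, and from how many clones, is not stated in any source used here.

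Autophagy encloses cytoplasm in a double membrane that fuses with the lysosome. The Ulk kinase starts the process, the class III PI3 kinase marks the growing membrane with a lipid, Atg9 vesicles and Atg2 supply membrane, and 2 ubiquitin-like conjugation reactions attach Atg8 proteins to it. Foxk1 is a forkhead transcription factor known as a repressor of autophagy genes under nutrient-rich conditions, and Tfeb and Tfe3 activate genes of autophagy and lysosomes.

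At days 3 and 5 the lists held 14519 to 59006 summits, control day 5 replicate 1 having the shortest, and at day 10 they held 4028 to 10548. Read depth is unknown. The 2 lists of KO day 5 have D7 in their peak names, and their labels (day 5) were followed. The day 10 names lack a duplicate-removal tag that the others carry, and the lowest day 10 scores were 1.78 to 1.85 against about 1.3 before, so day and processing cannot be told apart. As a check of the tissue, gene-end summits were present in all 8 libraries of days 3 and 5 at 1 of 6 pluripotency, 2 of 8 mesoderm and 4 of 10 fibroblast markers, against 34.4% of all genes. In each day 3 library they were present at 5 of 6, 6 of 8 and 7 of 10 of these markers. In the KO day 5 libraries it was 5 to 6, 6 and 6 to 7. In the control day 5 libraries, which include the shortest of these lists, it was 1 to 3, 2 to 6 and 4 to 6. Near the mesoderm markers 13 of 36 day 3 regions were found in both control libraries and neither KO library (36.1%, against 9.57% of all regions) and 3 in the reverse pattern, and the part of that difference in the values below was not tested.

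RefSeq (GRCm38.p6, the assembly of mm10) gave 36 transcription start windows for 31 of the 38 genes, and 6 of them are printed because the results turn on them. Each run is the 250 bases before the start, read 5′ to 3′ on the gene's strand. Capitals mark CCAAT (the NF-Y box), GGGCGG (the Sp box) and TCACGTGA (the E-box of the CLEAR type bound by Tfeb), on either strand and with overlaps allowed. Wipi1, Uvrag and Atg3 had the gene-end summits of highest mean rank. Atg9a and Bnip3 were the pair found at day 10 in the controls alone among the 4028 highest-scoring summits of each list. The Atg7 window had no summit within 1 kb in any library. Its start lies 27969 bp inside the annotated span of Atg7, whose lower end had a summit in all 8 libraries of days 3 and 5.
Wipi1, chr11:109611390-109611639, minus strand: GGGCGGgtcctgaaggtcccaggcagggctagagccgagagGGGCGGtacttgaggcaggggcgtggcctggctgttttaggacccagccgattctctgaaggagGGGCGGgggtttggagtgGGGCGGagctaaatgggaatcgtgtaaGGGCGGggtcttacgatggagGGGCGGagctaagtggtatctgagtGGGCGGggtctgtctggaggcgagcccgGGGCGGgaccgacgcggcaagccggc
Uvrag, chr7:99141145-99141394, minus strand: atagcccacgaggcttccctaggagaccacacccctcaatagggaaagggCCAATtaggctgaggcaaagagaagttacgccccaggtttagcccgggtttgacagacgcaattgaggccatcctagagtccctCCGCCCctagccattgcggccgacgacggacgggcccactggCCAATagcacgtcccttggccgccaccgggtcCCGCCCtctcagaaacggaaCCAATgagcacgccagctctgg
Atg3, chr16:45158579-45158828, plus strand: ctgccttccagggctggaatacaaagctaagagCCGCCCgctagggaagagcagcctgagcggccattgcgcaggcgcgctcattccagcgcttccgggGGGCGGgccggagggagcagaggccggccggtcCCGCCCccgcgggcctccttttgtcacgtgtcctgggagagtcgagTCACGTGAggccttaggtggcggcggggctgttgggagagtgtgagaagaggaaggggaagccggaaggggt
Atg9a, chr1:75192011-75192260, minus strand: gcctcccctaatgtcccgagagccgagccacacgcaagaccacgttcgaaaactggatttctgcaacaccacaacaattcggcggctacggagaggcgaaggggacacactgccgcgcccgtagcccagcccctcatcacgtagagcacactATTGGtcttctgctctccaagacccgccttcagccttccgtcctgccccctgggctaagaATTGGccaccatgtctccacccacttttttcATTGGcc
Bnip3, chr7:138909507-138909756, minus strand: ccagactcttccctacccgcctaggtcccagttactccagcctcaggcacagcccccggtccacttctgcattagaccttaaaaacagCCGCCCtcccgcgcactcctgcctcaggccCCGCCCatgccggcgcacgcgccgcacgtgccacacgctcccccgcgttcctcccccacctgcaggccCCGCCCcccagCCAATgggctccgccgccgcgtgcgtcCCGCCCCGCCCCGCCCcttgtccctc
Atg7, chr6:114670846-114671095, plus strand: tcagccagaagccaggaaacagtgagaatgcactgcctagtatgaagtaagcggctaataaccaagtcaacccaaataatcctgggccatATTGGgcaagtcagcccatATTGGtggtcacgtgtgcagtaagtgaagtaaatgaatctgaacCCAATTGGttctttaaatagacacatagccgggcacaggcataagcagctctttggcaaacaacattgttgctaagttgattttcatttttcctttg
Counted over 300 bases (250 before and 50 after each start), GGGCGG occurred in 24 of the 36 windows (66.7%) against 35.7% of 32851 RefSeq windows. CCAAT occurred in 12 (33.3%, against 37.4% of all). TGACGTCA, the cyclic AMP response element, occurred in 2 (Atg16l2 and Atg5, 5.56% against 1.79%), and TCACGTGA in 1 (Atg3, 2.78% against 0.974%). No window held GTAAACA, a forkhead core, which occurred in 3.65% of all windows, and this says only that these letters are not in these windows. The median GC content over the 250 bases was 60% for the 36 windows (38 to 78) and 52.4% for all.

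Most of these genes carried an accessible site at an end in every early library. A gene-end summit was found in all 8 libraries of days 3 and 5 at 29 of the 38 genes (76.3%), against 7435 of 21631 protein-coding genes (34.4%). By library, 31 to 34 of the 38 genes had one (81.6% to 89.5%), against 38.6% to 58.2% of all genes. Counting any summit within 1 kb of an end, whichever gene was nearer, brought the number to 33. The exceptions were Ulk1 (7 of 8 libraries, none in control day 5 replicate 1), Tfeb (4 of 8, all at day 5), and Pik3c3, Atg4a and Atg4c (none). The gap between 29 and 33 came from genes that share a start with a neighbour: Atg13 (Harbi1, 255 bp away), Atg2b (Gskip, 55 bp), Atg4b (Thap4, 67 bp) and Atg12 (Ap3s1, 30 bp). At Atg2b, Atg4b and Atg12 the summit went to one gene in some libraries and to its neighbour in others, while at Atg13 all 8 were nearer to Harbi1. In all, 14 of the 38 genes had another gene's end within 1 kb.

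**Figure D1:**
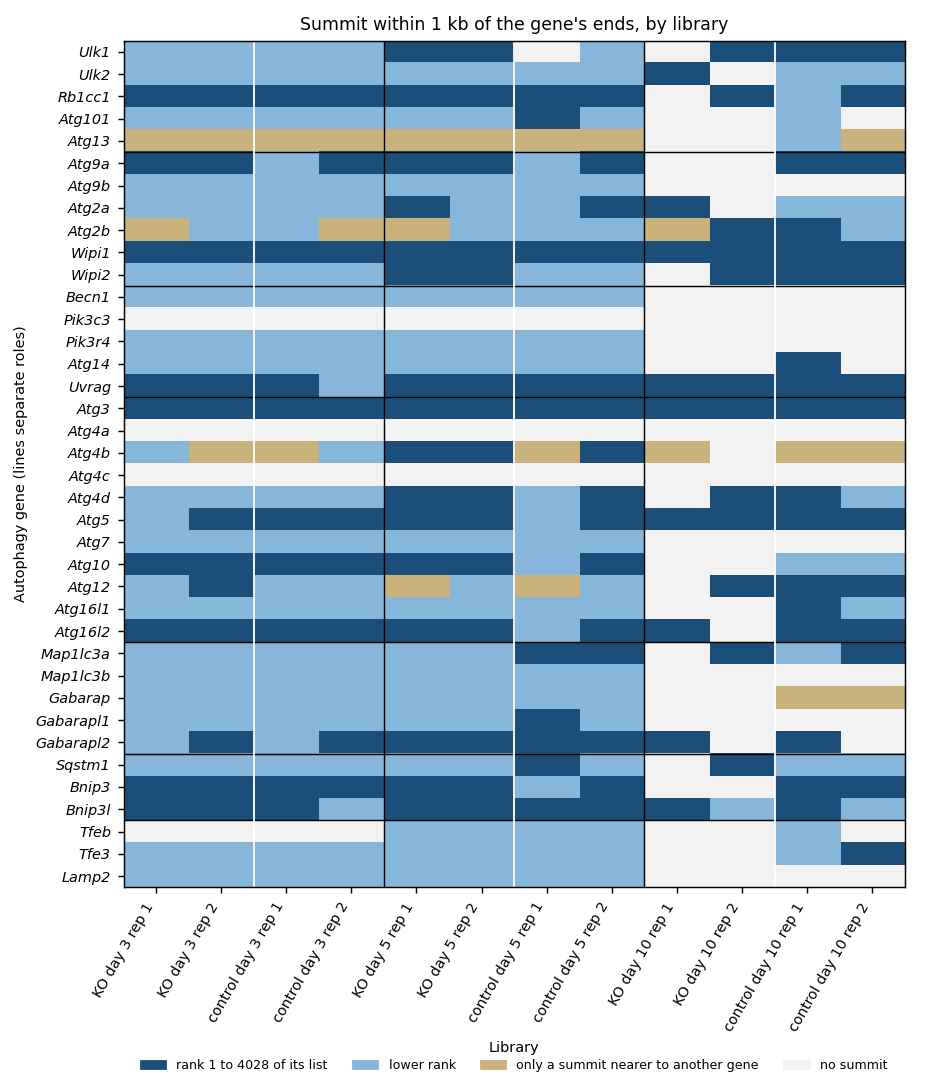
Each row is an autophagy gene and each column a library. Dark blue marks a gene-end summit among the 4028 highest-scoring of its list, light blue one of lower rank, tan a summit within 1 kb that is nearer to another gene, and grey none. The first 8 columns are nearly filled, while the KO day 10 libraries have 9 and 13 genes and the control day 10 libraries 26 and 21.

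The summits lay at annotated starts. Of the 31 genes with a RefSeq start, 28 had a summit within 1 kb of one in all 8 early libraries, and over the 29 starts concerned the median distance from summit to start was 70.0 bp (3.0 to 497.5). Atg4c, a protease that processes Atg8 proteins, had no gene-end summit, but its RefSeq starts lie 4775 and 4988 bp inside the gene's annotated span and had a summit in all 8 libraries. Of the starts of its relative Atg4a, the one 3062 bp inside the span had a summit in all 8, which lay nearer to Psmd10. Windows with a summit in all 8 had a median GC content of 61.2% (42.8 to 78, 29 windows), and the 4 with none (Atg9b, Atg7, the first of Atg4a and the third of Tfeb) had 45.4% (38 to 60.4). Of these 4, the Atg7 start lies 27969 bp and the Tfeb start 6672 bp inside the gene's annotated span.

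At each list's 4028 highest-scoring summits, the length of the shortest list, the 38 genes held 9 to 12 gene-end summits at day 3, 10 to 16 at day 5 and 10 to 16 at day 10. Over full lists fewer genes were occupied at day 10 (9 and 13 in KO, 26 and 21 in controls). The day 10 lists were also shorter, and the part of list length in this was not tested. Gene-end summits in all 12 libraries were found at Wipi1, Uvrag, Atg3, Atg5 and Bnip3l (5 of 38, 13.2%, against 5.91% of all genes).

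Scores were compared as ranks. In the 10466 regions that had a summit in all 8 libraries of days 3 and 5, each library's scores were turned into percentiles (100 is the highest score), and 33 of the regions belonged to 31 of the genes, 27 of them at gene ends. KO and control were compared on the normal scores of these percentiles by limma with Benjamini-Hochberg adjustment over all 10466 regions. In the KO against control comparison at day 3, 0 of the 33 passed at an adjusted p of 0.05 (2 had an unadjusted p under 0.05), where 30 of all regions did (0.287%). At day 5 it was also 0 of 33 (3 unadjusted), against 0.373% of all regions, and for the difference between the day 5 and day 3 effects 0 of 33 (1 unadjusted), against 0.0%. The median 95% interval reached 0.73 normal-score units to each side at either day. The median KO minus control difference over the 33 was -0.1 at day 3 and 0.102 at day 5, against 0.015 and 0.005 over all regions. With control day 5 replicate 1 left out, 2 of 43 member regions passed at day 3 and 2 at day 5 (1.68% and 3.39% of all regions). With control day 5 replicate 2 left out, 6 of 33 passed at day 5 and 4 for the difference, where 32.1% and 15.9% of all regions passed.

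**Figure D2:**
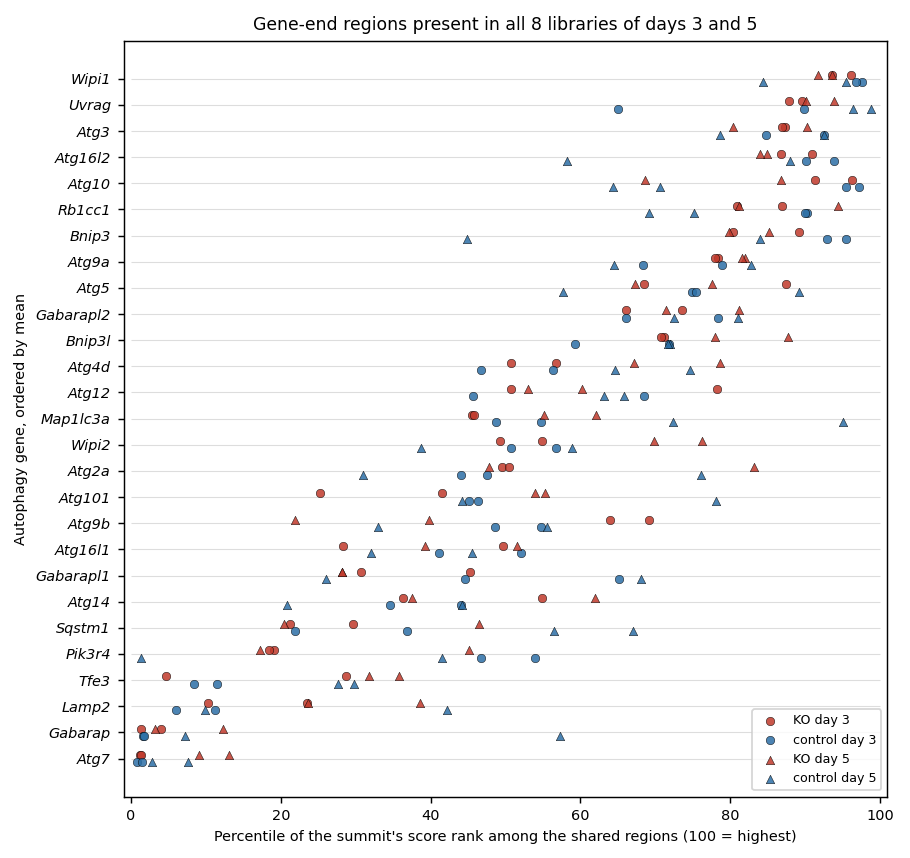
Percentile of the score rank (x axis) of the 27 gene-end regions (y axis, ordered by mean) among the 10466 shared regions, 1 point per library, red for KO and blue for control, circles for day 3 and triangles for day 5. Genotypes overlap in most rows. Wipi1 lies at 84.4 to 97.5 in every library and Atg7 at 0.85 to 13.0.

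Among the kinase genes, Rb1cc1 (the Fip200 scaffold of the complex) ranked highest, at percentiles 80.9 and 86.9 in KO and 90.3 and 90.0 in controls at day 3, and 81.2 and 94.4 against 69.2 and 75.1 at day 5. The 2 arms thus stood in opposite order on the 2 days, without overlap. The difference was -0.29 ± 0.31 (SE) at day 3 and 0.65 ± 0.31 at day 5, with adjusted p-values by limma of 1.0 and 0.414. Such orders were common. Taking each day alone, both KO libraries lay below both controls at 24.3% of all regions shared at day 3 and 19.2% at day 5. They lay above both at 8400 of 32809 regions at day 3 and 2147 of 10762 at day 5. These shares apply to every such order named below. Atg101, which stabilises the complex, lay lower, at 25.2 to 55.3 in 7 libraries and 78.1 in control day 5 replicate 1.

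Among the genes of membrane supply, Wipi1, which binds the lipid made by the PI3 kinase, had the highest mean percentile of all 27 (93.7). Its relative Wipi2 was at 49.2 and 54.9 (KO) and 56.7 and 50.7 (control) at day 3 and at 69.8 and 76.2 against 58.9 and 38.7 at day 5, where both KO values lay above both controls (0.65 ± 0.29 SE, adjusted p by limma 0.399; 0.39 without control day 5 replicate 2). Atg9a, the vesicle protein that scrambles lipids, held 78.0 to 82.0 in the KO and 64.5 to 82.8 in the controls, and these ranges overlap. The Atg9b summit lay 612 bp beyond the lower end of the gene, inside the span of its neighbour Nos3, and not at the RefSeq start of Atg9b.

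In the PI3 kinase complex the gene ends differed widely in rank. Uvrag, a subunit of the endosomal form of the complex, was at 87.9 and 89.6 in KO and 89.8 and 65.0 in controls at day 3, and at 93.8 and 90.2 against 98.8 and 96.5 at day 5. Pik3r4, the regulatory subunit, was at 19.1 and 18.4 against 46.7 and 54.0 at day 3, and at 17.2 and 45.1 against 1.29 and 41.5 at day 5. Both KO values lay below both controls at day 3 and the arms overlapped at day 5; the adjusted p by limma was 0.947 at day 3. Pik3c3, the catalytic subunit, had no gene-end summit in any library, but a site 7.21 kb inside the gene was present in all 8. There the KO percentiles were 47.6 and 43.6 against 72.7 and 72.5 in the controls at day 3, and 55.4 and 55.1 against 69.5 and 70.5 at day 5. Both KO libraries lay below both controls on each day. Taking each day alone, this order was found at 24.3% of all regions shared at day 3 and 19.2% of all shared at day 5. The differences, -0.71 ± 0.26 (SE) and -0.39 ± 0.26, did not pass (adjusted p by limma 0.662 and 0.515).

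The conjugation enzymes ranged from near the top of the 27 gene-end regions to the lowest. Atg3, which transfers Atg8 proteins to the membrane lipid, had percentiles of 78.7 to 92.5 in the 8 libraries, and Atg16l2, a scaffold homologous to Atg16l1, 84.1 to 93.9 in 7 of them and 58.2 in control day 5 replicate 1. Atg7, the activating enzyme of both conjugation reactions, lay at 1.23 and 1.31 (KO) and 0.85 and 1.44 (control) at day 3 and at 13.0 and 9.04 against 2.74 and 7.59 at day 5. Atg10, the enzyme that joins Atg12 to Atg5, lay at 91.3 and 96.3 against 97.2 and 95.5 at day 3 and at 86.8 and 68.7 against 64.4 and 70.7 at day 5. For both genes the 4 libraries of day 3 did not overlap the 4 of day 5, and the same held for Atg4d, Map1lc3a and Uvrag. The share of all 10466 shared regions that separated in this way was not counted. Between the days 28.9% of them had an unadjusted p under 0.05 by limma, so the separation is not read as particular to these genes.

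Atg7 and Atg10 were the 2 genes whose rank change between days passed the adjusted threshold. In all, 10 of the 33 member regions had an unadjusted p under 0.05 by limma, against 28.9% of all shared regions. In a contrast of day 5 with day 3 over both genotypes, added after values had been seen, Atg10 fell by 1.06 ± 0.22 (SE; adjusted p by limma 0.0191) and Atg7 rose by 0.81 ± 0.20 (SE; adjusted p 0.0328). That is 2 of 33 member regions, or 6.06%, where 10.7% of all shared regions passed. Leaving out any 1 library of day 3, or either KO library of day 5, left neither past the threshold, and 0.622% to 1.43% of all regions passed in those settings. Over all 8 settings with 1 library left out the differences were -1.22 to -0.88 for Atg10 and 0.70 to 1.23 for Atg7.

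In the Atg8 family, whose proteins coat the membrane and hold cargo, all 5 genes had a gene-end summit in all 8 early libraries. Gabarapl2 was the highest, at 66.0 to 81.1. Gabarap was among the lowest, at 1.37 to 12.3 in 7 libraries and at 57.3 in control day 5 replicate 1. Map1lc3a (LC3A) lay at 45.6 to 62.1 in KO and at 48.7 to 95 in controls, with both day 5 controls (95 and 72.4) above both KO libraries (62.1 and 55.1; difference -0.90 ± 0.35 SE, adjusted p by limma 0.357). The highest of these values again came from the library with the shortest list. Without control day 5 replicate 1 the Map1lc3a difference was -0.32, and without control day 5 replicate 2 it was -1.42 and passed the threshold (adjusted p by limma 0.0037), as did 32.1% of all regions.

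Cargo receptors link the material to be degraded to Atg8 proteins. Sqstm1 (p62), the receptor for ubiquitin-tagged proteins, was at 20.5 and 46.5 in KO and 67.1 and 56.4 in controls at day 5 (-0.76 ± 0.33 SE, adjusted p by limma 0.394), and overlapped at day 3. The day 5 difference was -0.39 without KO day 5 replicate 1 and -1.12 without KO day 5 replicate 2. The mitophagy receptor Bnip3 had percentiles of 80.4 and 89.2 against 95.5 and 93.0 at day 3 and 79.9 and 85.2 against 44.8 and 84.0 at day 5. A site 10.0 kb from the end of Bnip3 was at 4.04 and 3.32 in KO and 36.1 and 13.2 in controls at day 3 (-1.05 ± 0.33 SE, adjusted p by limma 0.488), and the difference was -0.66 without control day 3 replicate 1. Bnip3l, its relative, stayed between 59.2 and 87.8. Of Tfe3 and the lysosomal membrane protein Lamp2, the gene ends lay at 4.67 to 35.7 and 5.97 to 42.2.

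Distal summits were concentrated at 1 gene. Of the 518 distal summits, 182 (35.1%) belonged to Atg7, which ranked 3 among 21631 genes by this count, while Atg10 (39), Atg4c (37), Pik3c3 (29) and Rb1cc1 (26) followed. Most of the Atg7 summits lay outside the gene, in the 160 kb between it and Hrh1, the histamine H1 receptor gene. In the libraries together 35 regions filled a stretch of 73.0 kb (chr6:114564038-114637069, mm10), beyond the lower end of Atg7. Many were evenly spaced: 18 of the 34 spacings between neighbouring regions were between 2.3 and 2.6 kb. In KO day 3 replicate 1 this stretch held 25 summits with a median spacing of 2.46 kb, and 16 of the 24 spacings (66.7%) lay in this range. The other day 3 libraries held 20, 23 and 21 summits there with median spacings of 2.6, 2.54 and 2.56 kb, and 42.1%, 45.5% and 45% of the spacings lay in the range. At days 5 and 10 the share was 0 to 42.9% in the 7 libraries with more than 1 summit there. Few other genes had as many distal summits. In each day 3 library only 3 to 5 genes had at least 20, and by the share of spacings in this range Atg7 stood second in each after Hrh1, which faces the same stretch from the other side (36.4% to 55.2% for all distal spacings of Atg7, 50.0% to 65.4% for Hrh1). The range holds the day 3 median spacings of this same stretch, so this order describes the stretch and is not a test. The sequence of the stretch was not analysed here, and how reads that match several places were treated is not given in the sources used here.

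**Figure D3:**
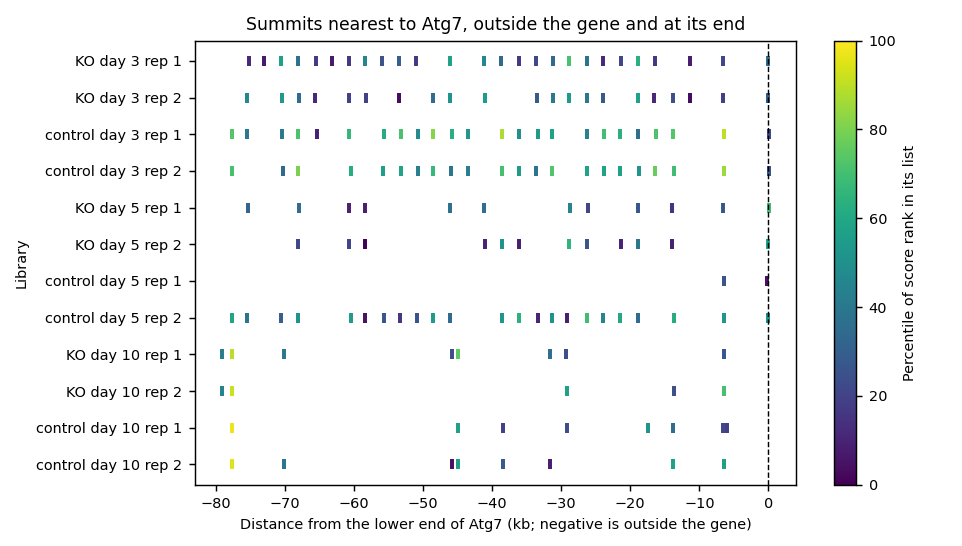
Distance of each summit from the lower end of Atg7 in kb (x axis) for the 12 libraries (y axis), coloured by the percentile of its score rank in its own list. Summits recur every 2.3 to 2.6 kb in many places of the day 3 libraries, with higher percentiles in the controls, control day 5 replicate 1 has 1 such summit, and all 4 day 10 libraries share a summit at about -77.6 kb.

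The same stretch held the differences between genotypes that passed a test. Because the 8-library set held only 6 distal regions of these genes, day 3 was also fitted alone, a choice made after values had been seen. This set had 32809 regions in all 4 day 3 libraries, 65 of them near the autophagy genes. By limma with Benjamini-Hochberg adjustment, 5 of the 65 passed (15 unadjusted), against 1160 of all regions (3.54%). All 5 lay beyond the lower end of Atg7 and all 5 ranked lower in the KO. Of the 52 regions of the other genes, 0 passed (7 unadjusted), and of the 31 gene-end regions 0 (1 unadjusted). These neighbouring regions share their locus and libraries and are not independent of each other.

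Nearest to Atg7, 6.5 kb from its end, the percentiles were 3.8 and 4.7 in KO and 84.4 and 76.1 in controls, a difference of -2.59 ± 0.22 (SE, normal score; adjusted p by limma 0.0173). At 16.4 kb they were 2.5 and 2.2 against 57.1 and 63.7 (-2.25 ± 0.21 SE, adjusted p 0.0173). At 60.6 kb they were 2.5 and 4.9 against 49.3 and 43.3 (-1.72 ± 0.23 SE, adjusted p 0.0225). In each of these the 2 KO libraries were near the bottom of the shared regions and the 2 controls near or above the middle. The other 2, at 23.9 and 68.1 kb, differed by -1.69 ± 0.34 and -1.45 ± 0.22 (SE; adjusted p by limma 0.0489 and 0.0281).

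The order was not the same at every site of the stretch. Of its 11 shared regions nearer to Atg7, both KO libraries lay below both controls at 8 (72.7%, against 24.3% of all 32809 regions) and above both at 2, at 70.4 and 18.8 kb. Of the 13 shared regions nearer to Hrh1, both KO libraries lay below both controls at 12, and 8 passed the test, all lower in the KO. Median percentiles were 11 in KO and 40.8 in controls on the Atg7 side and 3.4 and 52.2 on the Hrh1 side. With either control library left out 0 of all regions passed, so the member calls cannot be told from the rest in that setting. With either KO library left out the KO held 1 library, and the number of regions passing is not read there. Over the 4 settings with 1 library left out the 5 differences kept their sign. They were -2.67 to -2.36 (6.5 kb), -2.28 to -2.03 (16.4 kb), -1.76 to -1.46 (60.6 kb), -1.92 to -1.17 (23.9 kb) and -1.54 to -1.26 (68.1 kb). At day 5 alone 0 of 32 member regions passed (0 unadjusted), against 0.0% of all 10762, and the set held no region of the stretch on the Atg7 side because control day 5 replicate 1 has 1 summit there. The best-ranked summit of the stretch stood at 26548 and 14733 in the KO day 5 lists and at 10622 in control day 5 replicate 2, lists of 48391, 42129 and 34040 summits.

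**Figure D4:**
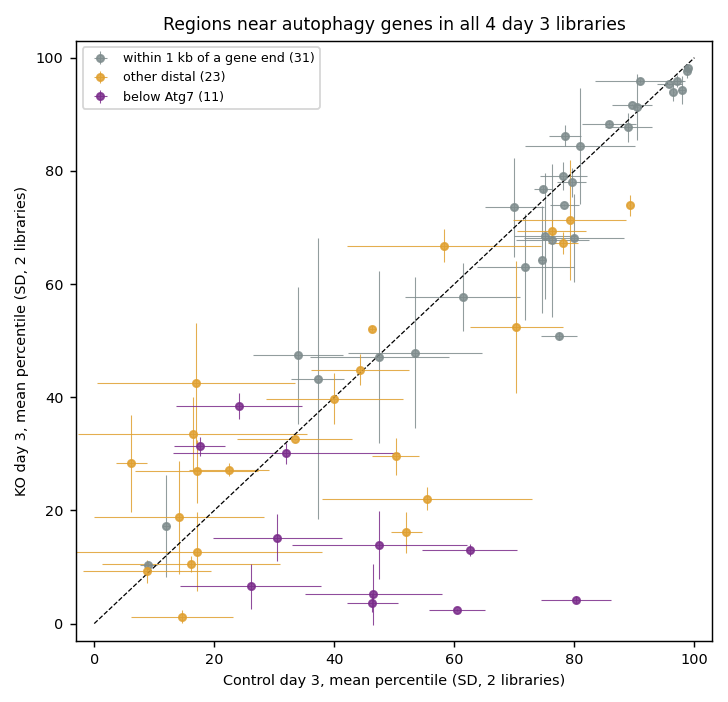
Mean percentile in the KO (y axis) against that in the controls (x axis) of the 65 regions near autophagy genes that all 4 day 3 libraries share, with SD bars over 2 libraries and the line of equality. Most of the 31 gene-end regions (grey) lie near the line, and at 8 of the 11 regions below Atg7 (purple) both KO percentiles are at 18.2 or lower and below both controls.

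Outside this stretch the day 3 fit gave smaller values. Pik3r4 was the 1 gene-end region with an unadjusted p under 0.05, at 51.3 and 50.3 in KO and 75.3 and 79.6 in controls (-0.74 ± 0.21 SE, adjusted p by limma 0.116). A site 49.2 kb inside Atg10 was at 18.7 and 13.6 against 53.8 and 50.2 (-1.04 ± 0.22 SE, adjusted p by limma 0.0542). A site 1.6 kb from the end of Wipi2 was at 2.0 and 0.4 against 20.6 and 8.6 (-1.27 ± 0.30 SE, adjusted p by limma 0.0763). All 3 lay lower in both KO libraries, and none of the 3 passed the adjusted threshold in this fit. A site 41.6 kb inside Atg7 stood the other way, at 34.4 and 22.3 against 8.0 and 4.4 (0.97 ± 0.24 SE, adjusted p by limma 0.0835).

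Presence and absence were compared next. For each day the libraries were reduced to the same number of highest-scoring summits (53456 at day 3, 14519 at day 5, 4028 at day 10) and summits within 250 bp were merged. Regions that both KO libraries and no control library held were named KO-only, and those of the reverse kind control-only. An exact permutation test of 2 against 2 libraries cannot go below p = 0.333, so these calls have no p-value and are read against the share of all regions called. At day 3, 11 of 110 regions near the autophagy genes were KO-only (10.0%, against 9.77% of all 52273 regions) and 10 were control-only (9.09%, against 9.57%). Both shares are close to the background. None of these 21 was a gene-end region (32 tested), where 2.75% and 2.27% of all gene-end regions were called.

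**Figure D5:**
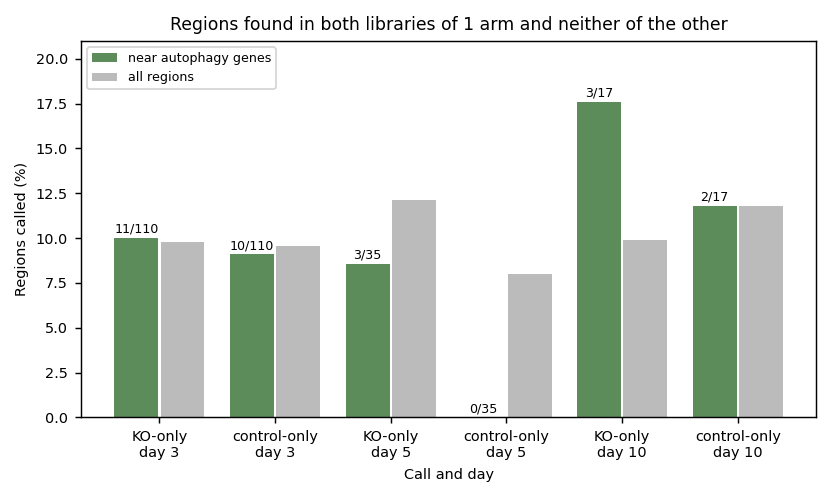
Share of regions called KO-only or control-only (y axis, percent) at each day, near the autophagy genes (green, counts above the bars) and over all regions (grey). At day 3 the bars are nearly level (10.0% and 9.09% against 9.77% and 9.57%), and at days 5 and 10 they rest on 0 to 3 regions.

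Atg7 had 30 of the 110 regions at day 3. Of these 5 were KO-only (16.7%) and 3 control-only (10%), against the 9.77% and 9.57% of all regions, and 7 of these calls lay in the evenly spaced stretch. At 41.1 kb from the gene a KO-only summit had ranks (1 is the highest score) of 31894 and 24109 at day 3 and 30850 and 38049 at day 5, and no control library had one. At 77.7 kb a control-only summit had ranks of 14403 and 15928 at day 3 and 14052 in control day 5 replicate 2, and was absent from the early KO lists. The nearest summit of the other arm was 2324 and 2100 bp away, about one step of the spacing, and for a pair of calls at 53.2 and 53.5 kb it was 283 bp away. Without Atg7 the counts were 6 KO-only of 80 regions (7.5%) and 7 control-only (8.75%).

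At Pik3c3 the sites of the 2 arms differed in position. A summit 2.58 kb inside the gene was found in both KO libraries at day 3 (ranks 30664 and 27849) and at day 5 (32655 and 39137) and in no control library. One at 3.73 kb was found in both day 3 controls (13427 and 11017) and in control day 5 replicate 2 (30449), and in no early KO library. At day 10 the second of these sites was present in all 4 libraries, at ranks 1851 and 1972 in KO and 4062 and 3976 in controls. There the percentiles among 2374 regions shared at day 10 were 40.7 and 39.8 against 16.4 and 15.3, a difference of 0.75 ± 0.13 (SE; adjusted p by limma 0.237). A site 17.7 kb outside the gene was KO-only as well, and one 30.1 kb inside it control-only.

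The remaining day 3 KO-only regions were inside Atg5 (38.3 kb from an end), Atg4c (12 kb), Uvrag (13.0 kb) and Ulk2 (7.13 kb). Atg5, the target of Atg12, also had a control-only site 2.31 kb outside the gene, at ranks 31894 and 29621. Other control-only sites were at Atg10 (89.7 kb inside), Atg14, the subunit that directs the PI3 kinase to autophagy (29.7 kb outside), Atg4c (80.0 kb outside) and Map1lc3b (4.29 kb outside). When each list was reduced to its 26728 highest-scoring summits, 5 of the 21 regions kept their call. Then 17 of 64 regions were control-only (26.6%, against 9.13% of all regions) and 5 KO-only (7.81%, against 9.1%). Of these 17, 13 were at Atg7 and the others at Atg10, Bnip3 and Pik3c3.

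A stricter view asks which regions recur over both early days. Among regions with a summit in all 4 KO or all 4 control libraries of days 3 and 5 over full lists, 6 of 63 near the autophagy genes were in all 4 KO and no control library (9.52%, against 3.17% of 30236 regions). They were Pik3c3 (2 sites), Atg7 (2), Atg4c and Atg5, and all 6 were distal. In the reverse direction it was 0 of 63, against 0.228%. This rule was applied after values had been seen, and the short list of control day 5 replicate 1 makes the reverse call rarer. Without that library 2 of 80 regions, at Pik3c3 and Atg7, were in the other 3 controls and no KO library (2.5%, against 1.06% of 32613 regions).

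At day 5, 3 of 35 regions were KO-only (8.57%, against 12.1% of all 14273) and 0 control-only (against 7.97%). The KO-only regions were 6.21 kb outside Rb1cc1, 27.8 kb outside Atg5, and at the end of Becn1, the scaffold of the PI3 kinase. All 3 were also present in all 4 libraries of day 3. The Becn1 site had ranks of 12078 and 9032 in KO and 17120 in control day 5 replicate 2, just beyond the 14519 compared, and control day 5 replicate 1 had a summit at rank 10863 within 1 kb of an end of Becn1 but outside the merged region. With control day 5 replicate 1 left out, 14 of 107 regions were KO-only and 42 control-only (13.1% and 39.3%, against 19.9% and 27.6% of all regions).

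At day 10, 3 of 17 regions were KO-only (17.6%, against 9.88% of all 3634) and 2 control-only (11.8%, against 11.8%). All 3 KO-only regions were distal (6 tested), where 21.7% of all distal regions were called. Both control-only regions were at gene ends (11 tested), where 15.0% of all gene-end regions were called. The KO-only regions were 84.2 kb outside Atg4c and at 79.1 and 29.2 kb from Atg7, in the evenly spaced stretch. The 29.2 kb site also had a summit at rank 8146 in control day 10 replicate 1, beyond the ranks compared. The control-only regions were the starts of Atg9a and Bnip3, whose sequences are printed above. Atg9a had ranks of 3638 and 2347 in the controls and Bnip3 of 3968 and 2174, and neither had a summit in a KO day 10 list, although both were among the 4278 highest in all libraries of day 3. Over full lists Atg10, Atg16l1 and Tfe3 also had gene-end summits in both day 10 controls and in neither KO list. Called over full lists, 7 of 33 regions near the autophagy genes were control-only (21.2%), against 35.0% of all regions. The KO lists (4028 and 4755 summits) were shorter than those of the controls (10548 and 7764). In the rank fit at day 10, 0 of 8 member regions passed (1 unadjusted), against 0.0% of 2374.

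Other genes of the pathway were counted in the same way. In all 8 early libraries a gene-end summit was present at 34.4% of all genes. It was present at 20 of 24 later and selective autophagy genes, 21 of 29 lysosome genes and 22 of 30 genes of mTORC1 and AMPK, the kinases that restrain and start autophagy. In the KO against control fit at days 3 and 5, 0 of their 22, 24 and 25 shared regions passed at day 3 and 0 at day 5, against 0.287% and 0.373% of all shared regions. Their KO-only counts at day 3 were 7 of 53 (13.2%), 2 of 43 (4.65%) and 4 of 59 (6.78%), against 9.77% of all regions. Their control-only counts were 5 (9.43%), 1 (2.33%) and 2 (3.39%), against 9.57%.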

How the data were processed

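ATAC-seq reads of 12 libraries were processed with Bowtie2 2.2.4, MACS2 and the mm10 build, per the submitters' processing notes, with 1 deposited summit list per library. The deposited score is the −log10 of a p-value or a q-value, and no source used here states which. The lists give no read counts, so a score served only to order summits inside its own list.

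The genes and lists were chosen with earlier results of these data known. Summits on chromosomes 1 to 19 and X were assigned with the RefSeq gene table (GRCm38.p6, 21631 protein-coding genes) to the nearest gene end within 100 kb and merged by single linkage at 250 bp. Ranks over shared regions were converted to normal scores and fitted with limma 3.58.1 (R 4.3.3) on group means, with Benjamini-Hochberg adjustment over all shared regions and a threshold of 0.05. Presence calls used no test. Scripts were tested on simulated data. Named were all genes with a call, the 5 highest and 5 lowest gene-end ranks, genes without a gene-end summit and the 5 with most distal summits; other genes were named for their roles, after their values were seen. Promoter windows of opposite strands that overlap were reverse complements in 1841 of 1841 cases. Other settings covered thresholds, merging, absence rules, windows, scales, single libraries and the replicate block.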

Additional observations from a re-analysis of the deposited data

How the results depend on the processing

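Counts of called regions moved with the threshold and window. With N divided by 2, day 3 gave 5 KO-only and 17 control-only regions (7.81% and 26.6%, against 9.1% and 9.13% of all regions). Day 10 gave 4 KO-only of 7 regions (57.1%, against 13.2% of all regions) and 0 control-only (against 13.1%). All summits gave 20 KO-only regions at day 5 (29.4%, against 36.9% of all regions) and 7 control-only at day 10 (21.2%, against 35.0%). A 50 kb window gave 6 control-only at day 3 (6.59%, against 9.57%) and 1 KO-only at day 10 (7.14%, against 9.88%). Merging at 100 bp gave 1 control-only at day 5 (2.86%, against 6.27%). Without Atg7 (added after values were seen) KO-only counts were 6 at day 3 (7.5%, against 9.77%) and 1 at day 10 (7.69%, against 9.88%). Genes with a gene-end summit in all 8 early libraries fell to 19 at the N highest summits. The contrast of days kept 1 call on the percentile scale, 1 with merging at 100 bp and 1 at the N highest summits. Leaving out 1 library gave 17 to 24 KO-only and 15 to 22 control-only regions at day 3, 3 to 14 and 0 to 42 at day 5, and 4 to 10 and 4 to 5 at day 10, since 1 library is then enough for presence. The shares were then 13.1% to 18.6% and 11.6% to 16.9% at day 3, against 13.1% to 18.6% and 11.5% to 19.8% of all regions. At day 5 they were 8.33% to 17.8% and 0.0% to 39.3%, against 18.1% to 22.3% and 8.69% to 28.3%. At day 10 they were 18.2% to 37.0% and 15.4% to 18.5%, against 12.2% to 26.1% and 15.6% to 23.4%. In the rank fits it gave 0 to 2 calls at day 3, 0 to 6 at day 5, 0 to 4 for their difference, 0 to 12 between days, 0 to 0 at day 10, 0 to 5 at day 3 alone and 0 to 8 at day 5 alone. A group left with 1 library is assumed to vary like the others. The highest counts at day 5, for the difference, between days and at day 5 alone came without control day 5 replicate 2. In that setting the share of all regions that passed in these fits was the highest too. The counts of the rank fits with 1 library left out are therefore not read as results about these genes.

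Replicate numbers did not pair the libraries: deviations of replicate 1 correlated at -0.057 to 0.012 between groups of days 3 and 5 and at -0.034 at day 10. With the replicate block, 6 member regions passed at day 3 alone in place of 5, the added one being the site 1.6 kb from the end of Wipi2. The share of all regions that passed with the block is not given here, so the added call is not read as a result about these genes. In the planned fits with the block 0 passed at days 3, 5 and 10. The number of summits, from 4028 to 59006, limits which absences can be read, and 66 of the 205 regions near these genes were found in 1 library.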

Other observations

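The 4 day 10 libraries shared a summit 77.6 kb beyond the lower end of Atg7 that was among the highest of their lists, at ranks 423 and 381 in KO and 292 and 368 in controls, and at percentiles of 83.5, 84.7, 88.2 and 85.3 among the regions shared at day 10. The site was also in both day 3 controls and in control day 5 replicate 2, and in no KO library of days 3 and 5. At day 10 the distal summits of Atg7 made up 61.5% to 72.7% of the distal summits near autophagy genes, against 16.7% to 43.1% at days 3 and 5.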
